A study of Saccharomyces cerevisiae with 6 samples.

Results

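The 69 genes described here encode proteins of the large (60S) subunit of the cytosolic ribosome of budding yeast. They were taken by name from the R64 gene table, as genes named RPL with a number and, for duplicated genes, the letter A or B. RPL2A, RPL2B, RPL22A, RPL22B, RPL30, RPL40A, RPL40B and the P-protein (RPP) stalk genes were not included. All 69 had a row among the 6692 gene rows of the files, and 67 had enough reads to be tested.

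The study asked which transcripts change when cells lose Rio1, a protein kinase of ribosome maturation. RNA was counted in 3 libraries from Rio1-depleted cells and 3 control libraries. All 6 came from MATa cells of the W303 background carrying RIO1-AID, a gene fused to an auxin-inducible degron, and PADH1-OsTIR1, a plant F-box gene under the yeast ADH1 promoter. The shared markers were ade2-1, trp1-1 and can1-100, together with his3-11,15, a leu2 allele and ura3-1. Cultures grew in YPD at 23 °C, and the depleted libraries came from cells that received 500 µM auxin for 1 h, whereas the control cultures received none. Sample titles call the controls WT, while the strain description gives the degron strain for both groups. No library had auxin with an intact Rio1, so an effect of auxin and an effect of losing Rio1 cannot be told apart. No label says whether the 3 libraries of a group are 3 cultures or 1 culture split, so the p-values reflect differences among libraries that may be technical.

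The large subunit holds the peptidyl transferase centre, where amino acids are joined, and the tunnel through which the new chain leaves. Its proteins are made in the cytoplasm, imported into the nucleus and built onto the precursor of the large rRNA in a set order, with a few added only in the cytoplasm. In yeast most of these genes exist as a pair of nearly identical copies, many carry an intron, and their promoters are typically bound by Rap1, which recruits Fhl1 and Ifh1. Transcription of ribosomal protein genes is known to fall quickly when growth signals or ribosome assembly are disturbed.

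The sequence that a reader would look for first upstream of these genes is the Rap1 motif, and it was searched as ACCCNNACA on both strands of the 500 bases before each start codon in R64. Stretches around it are shown for genes at the extremes of the response: RPL1B, RPL27B and RPL8A were among the 8 largest falls, RPL28 and RPL38 were among the 4 called falls nearest 0, and RPL33A and RPL41B were not called. The stretches lie at chrVII:254318-254350, chrIV:1401423-1401455, chrVIII:36244-36276, chrVII:310691-310723, chrXII:781628-781660, chrXVI:281756-281788 and chrIV:222125-222157, in this order of genes. Each is printed 5′ to 3′ on the coding strand of its gene, which is the minus strand for RPL8A, RPL38 and RPL41B, and capitals mark the motif.
RPL1B: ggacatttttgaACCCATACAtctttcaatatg
RPL27B: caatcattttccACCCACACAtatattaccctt
RPL8A: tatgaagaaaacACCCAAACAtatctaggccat
RPL28: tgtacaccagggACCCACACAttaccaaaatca
RPL38: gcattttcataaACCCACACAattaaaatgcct
RPL33A: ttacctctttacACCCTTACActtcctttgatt
RPL41B: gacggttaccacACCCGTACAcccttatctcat
The matched letters of RPL27B, which fell 4.11-fold, are the same 9 letters as those of RPL28 and RPL38, which fell 2.002-fold and 1.905-fold. A match of letters is a description and was not tested as a binding site.

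Of the 69 upstream windows, 32 (46.4%) held the Rap1 motif, against 5.47% of the 6000 windows of the same length in the genome and 32.1% of the 56 windows of small-subunit (RPS) genes. The second base was also left free (ANCCNNACA, which includes every match of the stricter form). The share was then 72.5% of the large-subunit genes, 62.5% of the small-subunit genes and 18.2% of all windows. The matches lay a median of 308 bases before the start codon. Genes with the stricter motif had a median log2 fold change of -1.52 and genes without it -1.48. No match of the stricter form was found for the others of the 8 largest falls (RPL7B, RPL31B, RPL42A, RPL9B and RPL12A), for RPL1A and RPL18B among the called falls nearest 0, or for the uncalled RPL15B. Several abundant genes described with their values, such as RPL3, RPL5, RPL15A, RPL24A, RPL27A and RPL31A, also had none of the stricter form. Among the genes named here without it, RPL7B, RPL42A, RPL18B, RPL5, RPL15A and RPL27A had a match with the second base free. The others had neither form.

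**Figure D1:**
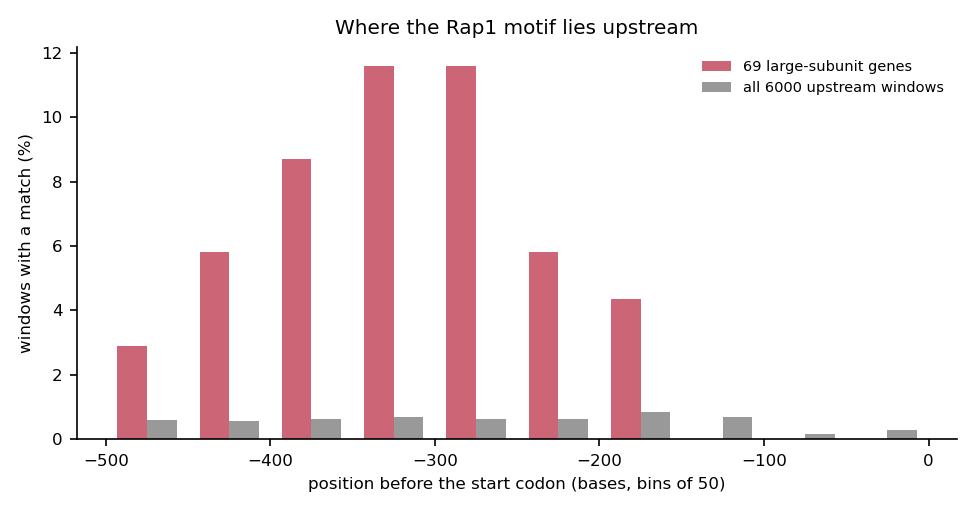
Percent of upstream windows with the Rap1 motif ACCCNNACA by position before the start codon, in bins of 50 bases, for the 69 large-subunit genes and for all 6000 windows. The large-subunit genes peak at 11.6% in both bins from 250 to 350 bases before the start codon and have no match nearer than 150 bases, while all windows stay under 1% in every bin.

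Other motifs of factors that act at growth genes were found less often, and none marked most of the large-subunit genes. The Fhl1 motif GACGCA was in 14 windows (20.3%, against 10.9% of all windows) and the Abf1 motif in 12 (17.4%, against 22.7%). The PAC motif GATGAG, read by Dot6 and Tod6, was in 15 (21.7%, against 28.2%), and the RRPE motif AAAAATTTT, read by Stb3, in 8 (11.6%, against 9.47%). The Cbf1 motif CACGTG was in 1 window (1.45%, against 6.23%). The Reb1 motif TTACCCG was in 4 windows (5.8%, against 10.1%), those of RPL11A, RPL15B, RPL18B and RPL41B. The median log2 fold change of these 4 was -0.50, and for the other motifs of this paragraph it ran from -1.56 (Fhl1) to -1.34 (Cbf1). Of the 4, RPL15B and RPL41B had few reads and were not called, and RPL11A changed by -1.34. Matches of different motifs may share bases, and the difference in change between genes with and without a motif was not tested.

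Gene counts summed to between 683896 and 1671136 per library, so 1 read is worth 0.598 to 1.46 CPM (counts scaled to a common library total) before TMM scaling. Reads aligned to more than 1 place, which the gene rows do not hold, made up 45.2% to 65.9% of the entries. Depleted library 2 stood apart in the rows whose names begin with YLR154, a set that includes reading frames in the rDNA. These rows took 4.12% of its gene counts, against 1.48% in control library 1 and 0.0589% to 0.197% in the others. Without these rows the count of large-subunit genes called lower was again 64, with a median log2 fold change of -1.49. RIO1 mRNA was higher in the depleted libraries (93.7 to 130 CPM against 62.9 to 66.3; edgeR adjusted p = 0.00159), and since the degron acts on the protein this level does not check the depletion. The MATa markers STE2 and STE6 stood at 326 to 585 CPM in all libraries and BAR1 at 146 to 162 CPM in controls and 109 to 131 CPM in depleted cells, where it was called lower (log2 fold change -0.38, edgeR adjusted p = 0.0395). The pheromone gene MFA1 stood at 2.86 to 10.7 CPM, AGA2 at 24.3 to 34.8 and MFA2 at 132 to 324. Of the MATalpha markers, MF(ALPHA)1 was at 0 in 5 libraries and MF(ALPHA)2 and STE3 stayed at or below 10.0 CPM, while SAG1, at 13.4 to 29.2 CPM in controls and 35.5 to 39.2 CPM in depleted cells, was called higher.

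Relative to the other genes of a library, transcripts of nearly all genes of the large subunit fell. Of the 67 genes tested, 64 were lower in depleted cells (edgeR quasi-likelihood test, adjusted p under 0.05 over all 5195 genes tested), none was higher, and 3 were not called. Over all genes tested, 14.1% were called lower and 14.1% higher. The median log2 fold change of the 67 was -1.49, against 0.01 for all genes tested, and 61 fell at least 2-fold. Their middle 50% lay between -1.66 and -1.34. The depleted and control libraries did not overlap for 63 of the 67, all in the direction of a fall, against 20% of all genes tested. Scaled counts are relative, so a change in the total mRNA of a cell cannot be seen in them. Values of a bulk culture cannot tell less mRNA in every cell from a fall in some of the cells.

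The fall was of similar size in the 3 depleted libraries. Measured against the mean of the controls, the median gene stood at -1.53, -1.52 and -1.55 on the log2 scale in depleted libraries 1 to 3, and at 0.03, -0.04 and 0.00 in control libraries 1 to 3. Depleted library 3 had the widest spread among genes, with its middle 50% between -1.80 and -1.15. The highest of the 3 depleted values came from libraries 1 to 3 for 17, 25 and 25 genes and the lowest for 24, 18 and 25, so no library was highest or lowest for most genes.

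As a share of all gene counts, the 69 genes took 4.86%, 4.84% and 4.69% in depleted libraries 1 to 3 and 11.0%, 10.7% and 10.6% in control libraries 1 to 3. The means were 4.80% ± 0.0902 and 10.8% ± 0.184 (SD, n = 3 each), a difference of -5.99 percentage points, and the exact two-sided permutation test gave p = 0.1, the smallest it can give with 3 against 3. The 95% Wilson interval of any of these shares reached at most 0.069 percentage points to either side, which covers counting error only, since PCR copies are not independent molecules. The small-subunit genes took 12.2% ± 0.0521 in controls and 5.55% ± 0.150 in depleted cells. Large-subunit genes made up 47.0% ± 0.407 of the counts of both kinds of gene in controls and 46.4% ± 1.14 in depleted cells, a difference smaller than the spread between the depleted libraries (exact permutation p = 0.6). The median log2 fold change was -1.45 for the 56 RPS genes, all of them called lower, -1.51 for the 7 RPL genes not included and -1.30 for the 5 RPP stalk genes.

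**Figure D2:**
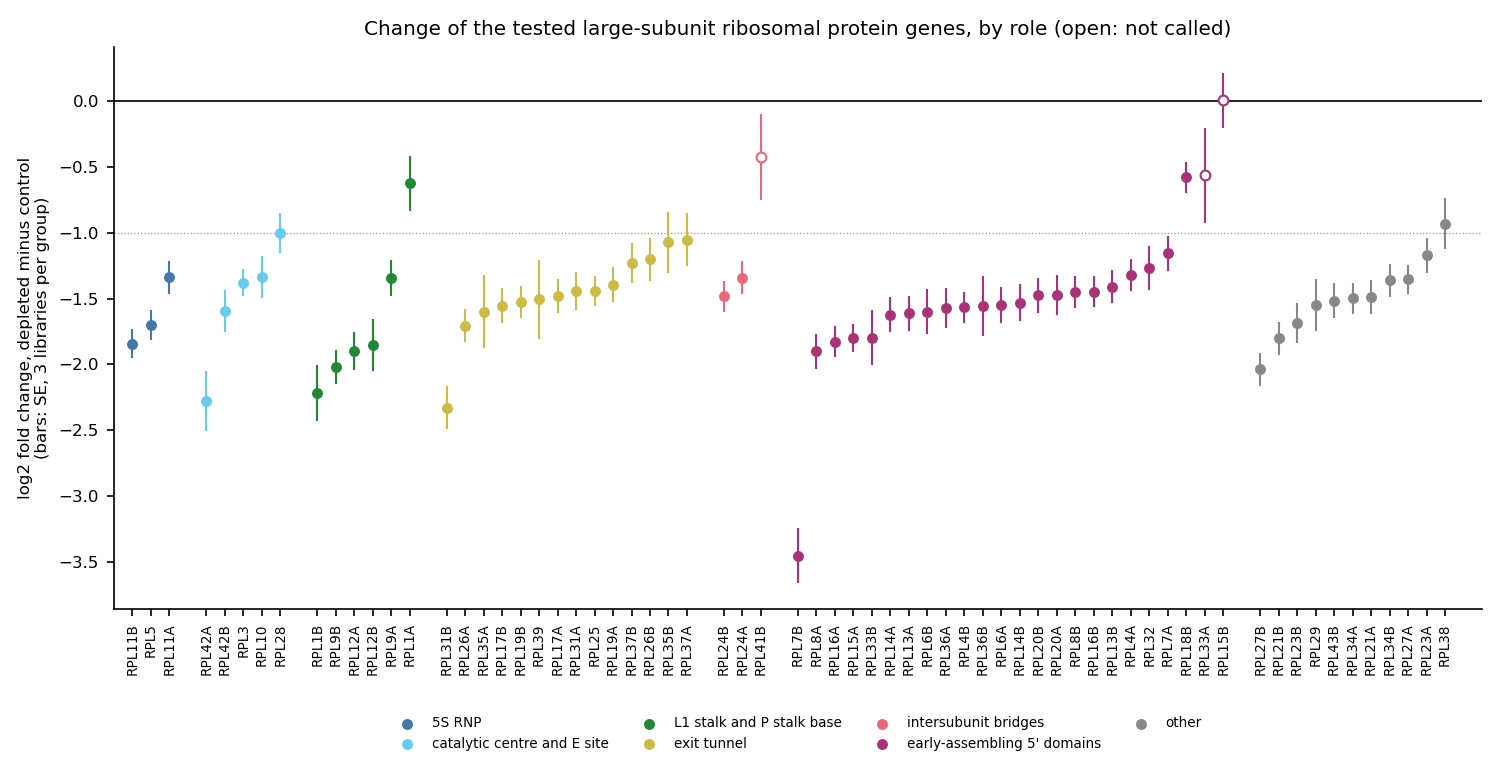
Log2 fold change (depleted minus control) of 66 of the 67 tested large-subunit genes from edgeR, grouped by the role of the protein and ordered within each role; bars are standard errors with 3 libraries per group. Filled points were called lower; the 3 open points, RPL41B, RPL33A and RPL15B, were not called, and RPL7B lies lowest at -3.46.

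Genes of every role fell, and the medians of the roles ranged from -1.88 to -1.34. RPL5, RPL11A and RPL11B encode the proteins that bind the 5S rRNA and carry it into the precursor particle, and all 3 fell, at a median of -1.70 on the log2 scale. RPL5 (YPL131W, chromosome XVI, 303121 to 304014, R64), the most abundant of them per kilobase, read 7529, 7102 and 7337 CPM in control libraries 1 to 3 and 2375, 2495 and 1892 CPM in depleted libraries 1 to 3. Every depleted library lay far below every control, and the log2 fold change was -1.70 ± 0.12 (SE, edgeR adjusted p = 2.52e-09). RPL11B changed by -1.84 and RPL11A by -1.34, and 39.1% of the 50-base windows in the coding sequence of either copy are found nowhere else in the genome, so reads of that length from much of these copies cannot be assigned.

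The 5 genes for proteins at the catalytic centre and the E site, the exit position of the tRNA, were all lower, with a median of -1.38. RPL3 (YOR063W, chromosome XV, 444686 to 445849), whose protein reaches towards the peptidyl transferase centre, read 5923, 5568 and 5678 CPM in controls and 2197, 2229 and 2172 CPM in depleted cells. Its depleted values were close together, far below the controls, and its log2 fold change was -1.38 ± 0.10 (SE). RPL10, which encodes a protein that joins the particle late, in the cytoplasm, changed by -1.34. The E-site gene RPL42A (YNL162W, chromosome XIV, 331322 to 332154) read 891, 932 and 969 CPM in controls and 195, 281 and 97.6 CPM in depleted libraries 1 to 3. The controls were close together and the depleted libraries were not, with library 3 lowest. The log2 fold change was -2.28 ± 0.23 (SE, edgeR adjusted p = 2.47e-07), and 51.5% of the 50-base coding windows of RPL42A are unique in the genome. At the other end, RPL28 (YGL103W, chromosome VII, 310967 to 311927), in which mutations give resistance to cycloheximide, read 1178, 1414 and 1703 CPM in controls and 668, 615 and 865 CPM in depleted cells. The groups did not overlap, and its change of -1.001 ± 0.15 (SE, edgeR adjusted p = 5.12e-05) was among the 4 called falls nearest 0.

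The L1 stalk, a mobile arm that helps tRNA leave the ribosome, and the base of the P stalk, where elongation factors dock, are served by 6 of the genes. All 6 were called lower, with a median of -1.88, and the groups did not overlap for 5 of them. RPL12A (YEL054C, chromosome V, 52721 to 53218), for a protein of the P stalk base, read 1017, 913 and 949 CPM in controls and 326, 244 and 205 CPM in depleted cells. RPL12B, the more abundant copy, read 1512, 1246 and 1266 CPM in controls and 517, 367 and 233 CPM in depleted cells. Both copies were highest in depleted library 1 and lowest in depleted library 3, and their log2 fold changes were -1.90 ± 0.15 and -1.85 ± 0.20 (SE). The row YDR417C, next to RPL12B in the naming order and absent from R64, had 999 reads in controls and 305 in depleted cells. RPL12B had 4359 and 1057. For YEL053W-A, next to RPL12A, the reads were 96 and 37, against 3162 and 739 for RPL12A. The part of these rows in the RPL12 values was not tested. RPL9B (YNL067W, chromosome XIV, 499681 to 500256), for a protein near the stalk base, read 319, 324 and 308 CPM in controls and 70.03, 73.1 and 89.7 CPM in depleted cells. Its groups lay about 4-fold apart with little spread in either, at -2.02 ± 0.13 (SE, edgeR adjusted p = 9.85e-10).

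RPL1A and RPL1B encode the same L1 stalk protein and did not change alike. RPL1B (YGL135W, chromosome VII, 254641 to 255294) read 183, 243 and 289 CPM in controls and 58.4, 32.2 and 68.0 CPM in depleted cells, a log2 fold change of -2.22 ± 0.21 (SE, edgeR adjusted p = 1.31e-07). RPL1A (YPL220W, chromosome XVI, 135790 to 136443) read 107, 148 and 210 CPM in controls and 83.0, 90.5 and 135 CPM in depleted cells. Depleted library 3 was above control library 1 for RPL1A, so its groups overlapped, and the log2 fold change was -0.62 ± 0.21 (SE, edgeR adjusted p = 0.0315). The call for RPL1A was lost in 6 of the alternative analyses, among them the one without control library 3, where the change was -0.34. Only 19.0% of the 50-base coding windows of these copies are unique in the genome.

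Proteins lining or surrounding the exit tunnel make the landing site for factors that meet the new chain. All 14 genes were called lower, with a median of -1.46, and the groups did not overlap for any of them. RPL31A (YDL075W, chromosome IV, 322226 to 322988) read 5503, 4837 and 3938 CPM in controls and 1816, 2032 and 1398 CPM in depleted cells, a log2 fold change of -1.44 ± 0.15 (SE). Its copy RPL31B (YLR406C, chromosome XII, 931065 to 931755) read 1842, 1773 and 1456 CPM in controls and 415, 346 and 249.5 CPM in depleted cells. No depleted library came near a control for either copy. The log2 fold change of RPL31B was -2.33 ± 0.16 (SE, edgeR adjusted p = 3.69e-09), and all coding windows of both copies are unique. RPL25, for the protein next to the tunnel opening that docks the signal recognition particle, changed by -1.44, and RPL39, for a small protein inside the tunnel, by -1.51. Nearest 0 among the tunnel genes were RPL35B (-1.07) and RPL37A (-1.05).

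Each gene was placed in a single role group, so a group need not hold every gene whose protein has that role. Of the 4 genes placed with the bridges to the small subunit, 3 were tested and 2 called lower. RPL24A (YGL031C, chromosome VII, 437467 to 437934) read 5692, 5056 and 4686 CPM in controls and 2065, 1719 and 2309 CPM in depleted cells, a log2 fold change of -1.34 ± 0.12 (SE), and RPL24B changed by -1.48. The bridge protein of RPL41A and RPL41B is among the smallest of the cell, and its coding sequence has 78 bases. The sequences of these copies are shown because a read that lies inside them can be assigned only where it covers their single difference, marked in capitals, and 31.0% of their 50-base windows are unique; they lie on the minus strand at chrIV:130407-130484 and chrIV:221724-221801.
RPL41A: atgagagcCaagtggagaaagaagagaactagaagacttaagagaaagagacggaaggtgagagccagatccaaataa
RPL41B: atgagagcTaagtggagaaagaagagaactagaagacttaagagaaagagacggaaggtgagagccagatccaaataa
RPL41B read 17.2, 25.6 and 23.4 CPM in controls and 11.7, 22.6 and 14.8 CPM in depleted cells, and its log2 fold change of -0.42 ± 0.33 (SE, edgeR adjusted p = 0.375) was not called. RPL41A had 1, 2 and 6 reads in control libraries 1 to 3 and 3, 2 and 1 reads in depleted libraries 1 to 3, too few to test. No difference in either RPL41 copy was detectable with so few reads.

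The largest role group held 25 genes whose proteins bind the early-folding 5′ domains of the large rRNA. Of these, 23 were called lower, and their log2 fold changes spanned from -3.46 to 0.01 with a median of -1.53. RPL15A (YLR029C, chromosome XII, 201976 to 202590), which stands highest per kilobase, read 6018, 5775 and 5848 CPM in controls and 1643, 1777 and 1648 CPM in depleted cells. Its groups were tight and far apart, and its change of -1.80 ± 0.11 had an edgeR adjusted p of 4.05e-10. RPL8A (YHL033C, chromosome VIII, 35255 to 36025) read 1233, 1375 and 1327 CPM in controls and 307, 329 and 416 CPM in depleted cells, at -1.90 ± 0.13 (SE).

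RPL7B (YPL198W, chromosome XVI, 173152 to 174702) had the lowest log2 fold change of all genes tested. It read 137, 168 and 174 CPM in controls and 11.7, 17.4 and 13.8 CPM in depleted cells, from 96 to 260 reads in a control library and from 9 to 20 in a depleted library. The groups lay 11.0-fold apart, at -3.46 ± 0.21 on the log2 scale (SE, edgeR adjusted p = 5.6e-10). RPL7A, its copy and the source of most RPL7 reads, read 1199.8, 1306 and 1424 CPM in controls and 492, 669 and 602 CPM in depleted cells, at -1.16 ± 0.13 (SE). Introns of RPL7A and RPL7B hold the snoRNA genes snR39 and snR59, and 37.7% of the 50-base coding windows of these copies are unique. The row YPL197C, next to RPL7B in the naming order and absent from the R64 gene table, went from 35 reads in the 3 controls to 3 in the 3 depleted libraries, and its part in the RPL7B value was not tested.

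RPL18B, RPL15B and RPL33A of the early group stood nearest 0. RPL18B (YNL301C, chromosome XIV, 63570 to 64562) read 303, 269 and 268 CPM in controls and 200, 162 and 200 CPM in depleted cells. Its groups did not overlap, and the change of -0.58 ± 0.12 (SE, edgeR adjusted p = 0.00103) was called; with library totals in place of TMM scaling it was -0.27 and not called. RPL15B (YMR121C, chromosome XIII, 509734 to 510348) read 45.8, 49.5 and 44.1 CPM in controls and 38.9, 52.2 and 47.3 CPM in depleted cells. The depleted values lay on both sides of the controls, and the change was 0.01 ± 0.21 (SE, edgeR adjusted p = 0.983). RPL33A (YPL143W, chromosome XVI, 282122 to 282970) read 82.9, 45.1 and 54.8 CPM in controls and 24.6, 19.2 and 74.9 CPM in depleted cells. Depleted library 3 alone was inside the control range; the change over all 6 libraries was -0.56 ± 0.36 (SE, edgeR adjusted p = 0.274), and without that library it was -1.45 and called lower. The row YPL142C, next to RPL33A in the naming order and absent from the R64 table, had 54 reads in controls and 20 in depleted cells, against 191 and 117 for RPL33A. Reads that overlap more than 1 row are set aside in an ambiguous class of 0.813% to 1.46% of the entries, and the part of this in the RPL33A value was not tested.

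Of the 12 remaining genes, 11 were tested and all 11 were called lower, with a median of -1.499. RPL27A (YHR010W, chromosome VIII, 126521 to 127492) read 4512, 4041 and 4123 CPM in controls and 1657, 1624 and 1676 CPM in depleted cells, at -1.35 ± 0.11 (SE). RPL27B (YDR471W, chromosome IV, 1401770 to 1402564) read 1429, 1649 and 1545 CPM in controls and 350, 413 and 361 CPM in depleted cells, at -2.04 ± 0.13 (SE, edgeR adjusted p = 7.52e-10). All coding windows of this pair are unique, and depleted library values of both copies lay far below the controls. RPL38 (YLR325C, chromosome XII, 781143 to 781379), known in mice for effects on body patterning, read 2052, 1612 and 1412 CPM in controls and 747, 643 and 1271 CPM in depleted cells. Its depleted library 3 was close to the lowest control without overlapping it, and the change was -0.93 ± 0.20 (SE, edgeR adjusted p = 0.00143). RPL43A had 3, 4 and 9 reads in controls and 2, 5 and 0 in depleted cells and was not tested, although all of its 50-base coding windows are unique. Its neighbour in the naming order, YPR044C, which is absent from the R64 table, had 24 reads in controls and 5 in depleted cells.

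**Figure D3:**
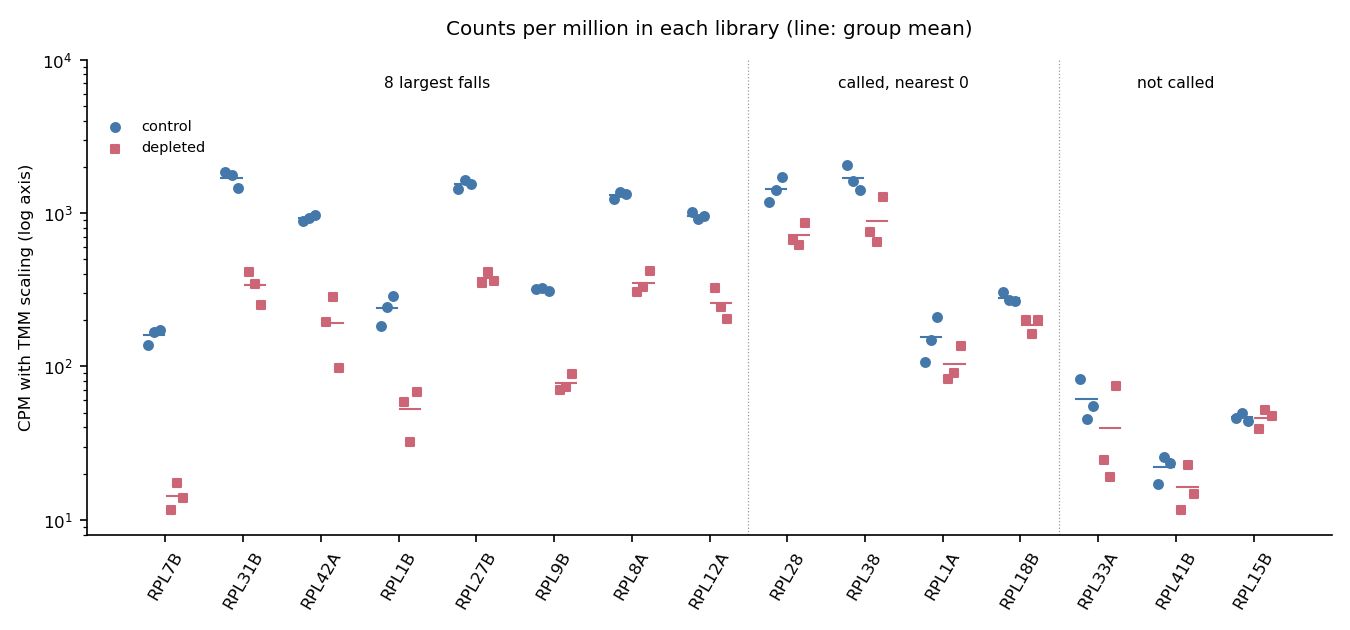
CPM with TMM scaling (log axis) of 15 large-subunit genes in each of the 3 control and 3 depleted libraries; each point is a library and each line a group mean. The groups are apart for the 8 largest falls, close but apart for RPL28, RPL38 and RPL18B, and overlapping for RPL1A, RPL33A, RPL41B and RPL15B.

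Gene structure separated the genes little. The 44 tested genes with an intron had a median log2 fold change of -1.503 (43 called lower) and the 23 without one -1.45 (21 called lower). The 9 single-copy genes were all called lower, with a median of -1.38, and the 58 tested genes with a copy had a median of -1.51 (55 called lower). Where at least 90% of coding windows are unique the median was -1.48 over 38 tested genes (37 called lower), and below that it was -1.56 over 29 (27 called lower). None of these differences between medians was tested.

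The order of abundance among the genes was largely kept. Over the 38 tested genes with at least 90% unique windows, levels in controls ran from 188 CPM per kilobase of coding sequence for RPL33A to 13916 for RPL31A, with a median of 3766. The median in depleted cells was 1361 CPM per kilobase. The filter takes no account of neighbouring rows absent from R64, such as YPL142C next to RPL33A, so these levels may be affected by them. Spearman's rho between control and depleted levels was 0.956 across the 38 genes, and Pearson's r of the log2 levels was 0.974. The same libraries give all points, genes are not independent replicates, and no p is given. RPL25 and RPL24A followed RPL31A, at 11569 and 10993 CPM per kilobase in controls, a gap smaller than the SD of RPL24A (1087). The SD of RPL31A was 2296, close to its gap to RPL25.

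**Figure D4:**
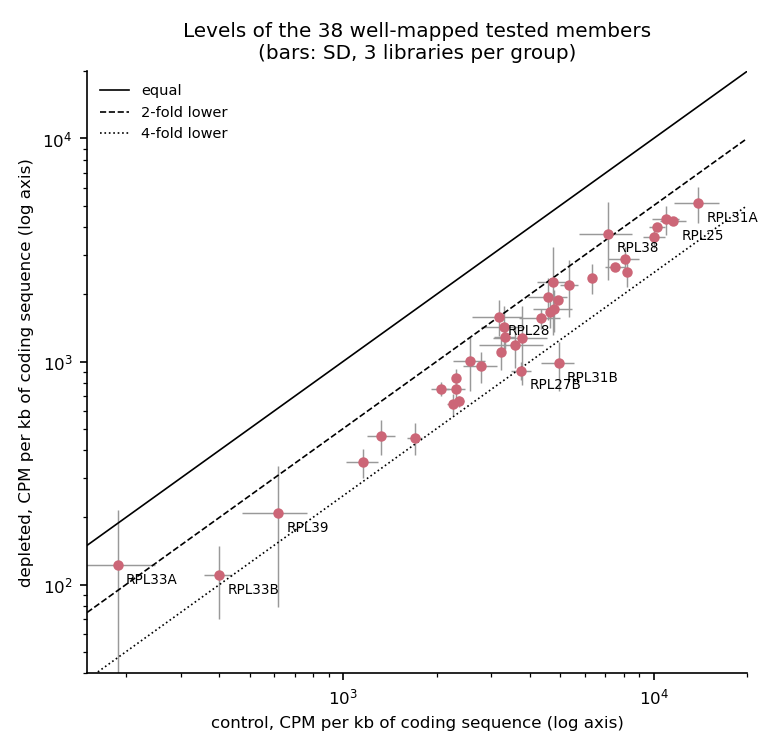
Mean level in depleted against control libraries, in CPM per kilobase of coding sequence on log axes, for the 38 tested large-subunit genes with at least 90% unique windows; bars are SDs over 3 libraries and lines mark equal, 2-fold lower and 4-fold lower levels. Most genes lie between the 2-fold and 4-fold lines, RPL31B and RPL27B lie beyond the 4-fold line, RPL33A and RPL38 lie between the equal and 2-fold lines, and RPL28 lies on the 2-fold line.

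The copies of a pair can be compared within a library, which does not depend on scaling. Of the 30 pairs, 28 had enough reads, and the ratio of the A to the B copy did not overlap between the groups for 15. The same held for 14 of 31 other pairs named A and B (45.2%). These other pairs are all ribosomal protein genes except NHP6 and COX5, whose ratios overlapped. The 2 shares are close, but they say little about pairs outside the ribosomal protein genes. The A share was higher in depleted cells in 8 of the 15 and lower in 7, and the copy with fewer reads in controls had the larger drop in 15 of the 28. The median size of the change in log2(A/B) was 0.42 for the large-subunit pairs and 0.38 for the other pairs, and 11 pairs of each kind changed by at least 0.5. Exact permutation tests give no p below 0.1 for any pair. Coding sequences of the 30 pairs are 86.5% to 99.4% identical, with a median of 93.5%.

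RPL7, whose protein binds early in assembly, showed the largest change in ratio. The A copy gave 89.7%, 88.6% and 89.1% of RPL7 reads in controls and 97.7%, 97.5% and 97.8% in depleted cells, a change of 2.33 in log2(A/B). In RPL15 the A share went the other way, from 99.25%, 99.15% and 99.25% in controls to 97.7%, 97.1% and 97.2% in depleted libraries 1 to 3, a change of -1.78. The groups were apart in both pairs, by more than the range within either group. RPL1 changed its major copy. RPL1A gave 37.0%, 37.8% and 42.1% of RPL1 reads in controls and 58.7%, 73.8% and 66.5% in depleted cells, a change of 1.65. RPL31A went from 74.9%, 73.2% and 73.0% to 81.4%, 85.5% and 84.9%, a change of 0.90.

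RPL33 and RPL35 had ratios that differed widely among the depleted libraries. For RPL33 the A share was 36.5%, 27.4% and 30.7% in controls and 54.3%, 31.0% and 63.3% in depleted cells; the groups overlapped (change of 1.09, exact permutation p = 0.2), and with as few as 35 reads a library the 95% Wilson interval reached up to 15.7 percentage points to either side. RPL33B itself read 144, 119 and 124 CPM in controls and 20.7, 42.7 and 43.4 CPM in depleted cells. For RPL35 the A share was 91.6%, 89.4% and 89.3% in controls, and 91.6%, 91.2% and 62.1% in depleted cells. RPL35A read 80.9 CPM in depleted library 3, against 270 and 323 CPM in the other depleted libraries, and 18.7% of the 50-base windows of this pair are unique.

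**Figure D5:**
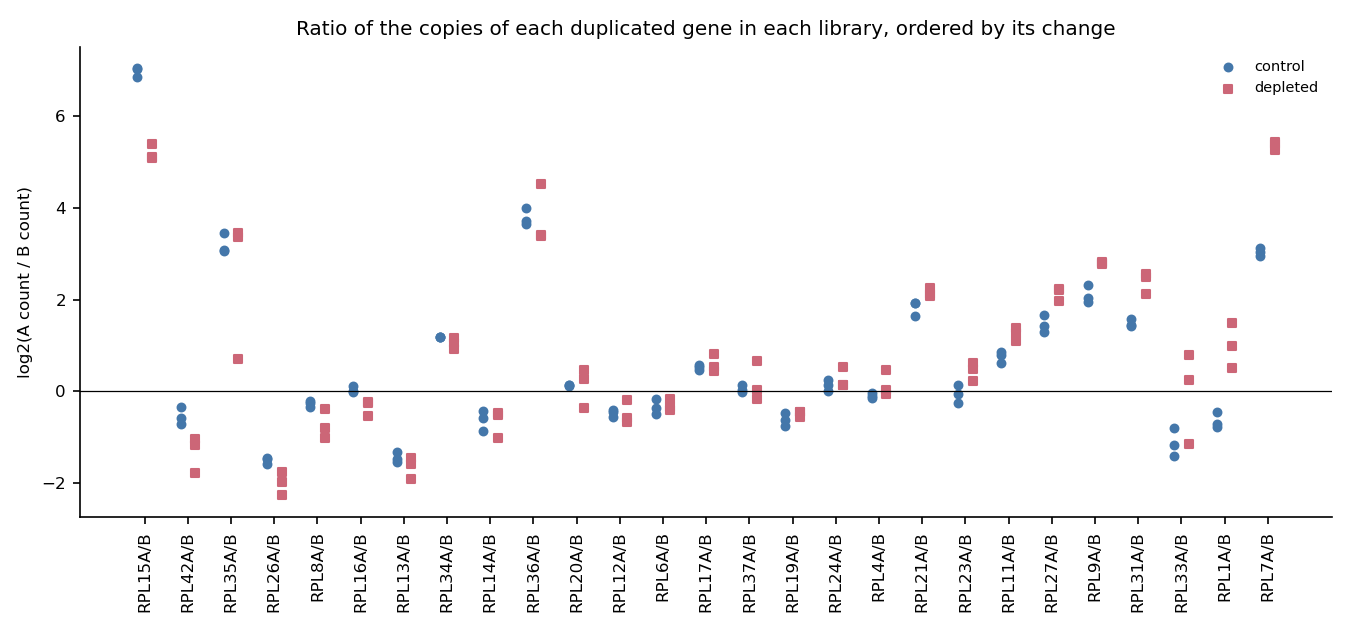
Log2 ratio of A to B reads for 27 of the 28 large-subunit pairs with enough reads, in each control (circles) and depleted (squares) library, ordered by the change between group means. The depleted points lie below the controls at the left end (RPL15, RPL42) and above them at the right end (RPL1, RPL7), and RPL35 has 1 depleted library far below the rest.

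Genes that regulate or serve the large-subunit genes are read against the 14.1% of all tested genes called in each direction. Of 15 transcriptional regulators of ribosomal protein genes, 14 were tested, 2 were lower, none was higher and 12 were not called, so the share called lower was close to that of all genes. RAP1, the factor whose motif is shown above, read 260, 304 and 271 CPM in controls and 193, 232 and 198 CPM in depleted cells, at -0.42 ± 0.11 (SE, edgeR adjusted p = 0.00972). STB3, a repressor of growth genes, changed by -0.72 ± 0.21 (SE, edgeR adjusted p = 0.0152). The median over the 14 was -0.09.

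The next 3 lists are short, and their counts stand beside the same 14.1% called higher and 14.1% called lower over all genes tested. Of 8 genes for chaperones and import receptors of large-subunit proteins, 2 were higher and none lower, ACL4, the chaperone of Rpl4 (0.51 ± 0.13, SE), and SQT1, the chaperone of Rpl10 (0.46 ± 0.14). Of 14 placeholder and docking factors, 4 were higher and none lower. REH1, a cytoplasmic maturation factor, read 137, 110 and 103 CPM in controls and 236, 246 and 232 CPM in depleted cells (log2 fold change 1.05 ± 0.13, SE; edgeR adjusted p = 4.14e-06). YVH1, which helps place the stalk, changed by 0.43 and NMD3, the export adaptor, by 0.33; RPF2, which docks the 5S particle, changed by 0.32 and was named after its value was seen. Of 5 listed genes that clear unassembled or surplus proteins, 4 had a row and 3 were tested. The ubiquitin ligase gene HUL5 (0.79 ± 0.18, SE) and the conjugating enzyme gene UBC4 (0.44 ± 0.13) were higher, and TOM1 (-0.04) was not called.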

How the data were processed

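Libraries were made with ScriptSeq v2 from hot-phenol RNA after rRNA removal (Ribo-Zero Gold), per the labels' protocols. The authors deposited unnormalized counts for each gene in a library. The submitters' processing notes name sacCer3, HTSeq, DESeq and TopHat2 2.0.8. How strand was handled, the read length and the annotation were not given in the sources used here, so reads of overlapping or antisense genes cannot be told apart. Multiply aligned reads are outside the gene rows, which lowers the counts of near-identical copies.

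Samples were grouped by the label naming depletion or control. Counts without the 5 summary rows went into edgeR 4.0.16 (R 4.3.3; TMM, filterByExpr with a minimum count of 10 and total of 15, glmQLFit, glmQLFTest; Benjamini-Hochberg over 5195 genes, adjusted p under 0.05). The procedure was tested on simulated data with the same dispersion for all genes and changes balanced up and down. That setting does not cover a shared fall of abundant genes or libraries split from a culture. A standard error is the size of the log2 fold change over the root of the F statistic. CPM use TMM-scaled library sizes. Shares and pair ratios were compared by exact permutation. Pairs needed 20 reads in every library. Names, coordinates and sequences come from RefSeq R64, which matched 6008 of 6692 rows; unique means that a 50-base window occurs nowhere else in R64. In the alternatives, DESeq2 1.42.0, other scalings, filters, single libraries left out and a replicate block were tried.

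Members, role groups and lists were chosen with earlier results of these data known. Given in full were the 8 largest called falls, the 4 called falls nearest 0, uncalled members, the 6 pairs with the largest change in ratio and the most abundant member of each role; from other lists, up to 3 called genes with the largest change. An item that this rule gives is not reported here.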

Additional observations from a re-analysis of the deposited data

How the results depend on the processing

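The number of large-subunit genes called lower stayed between 62 and 65 in every alternative (62 with library totals only, 63 with DESeq2, 63 to 65 without any 1 library), and none was called higher. Their median log2 fold change was -1.17 with library totals only, a scaling that moved the median of all genes to 0.32 and the calls to 313 lower and 1748 higher. It was -1.51 with scaling from genes other than ribosomal protein genes, -1.503 with no count filter and -1.46 with a mean of at least 50 counts, and it ran from -1.52 to -1.45 without any 1 library. The difference in share was -8.96 percentage points when taken against the counts outside ribosomal protein genes. Pairs whose ratio did not overlap between groups numbered 15 to 18.

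RPL15B, near 0, changed sign under scaling from other genes (-0.0132), no count filter (-0.0135) and DESeq2 (-0.002504), and ran from -0.0972 to 0.0974 without any 1 library. RPL1A lost its call with library totals (-0.31), a mean of at least 50 counts (-0.59), DESeq2 (-0.61) and without depleted library 1 (-0.52), depleted library 2 (-0.53) or control library 3 (-0.34); the cause was not tested. RPL41B, uncalled, was -0.75 without depleted library 2.

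With the replicate number as a block 64 genes were lower, with a median of -1.49, the difference in share was -5.99 percentage points, and 18 pairs moved the same way in all 3 numbers; it changed no call among the members. Correlations of the deviations from group means were -0.0568, -0.000787 and 0.0774 for same-numbered libraries. They ran from -0.0817 to 0.0669 for libraries with different numbers. All are near 0, and they cannot exclude a pairing, since such deviations also hold counting error. Reads were few for RPL41A, RPL41B, RPL43A and the RPL33 pair, which limits what can be said of them, and the cause was not tested.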
